A study of Mus musculus with 20 samples.

Results

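The IGF1 axis was followed here through 8 genes of the mouse gastrocnemius, the large muscle of the calf: the growth factor gene Igf1, its receptor Igf1r, and the genes of 6 IGF-binding proteins, Igfbp2, Igfbp3, Igfbp4, Igfbp5, Igfbp6 and Igfbp7. The genes were chosen by name and not by their values, and all 8 were found among the 55401 genes of the count matrix. The filter on low counts left 13626 genes for testing, among them 7 of the 8; Igfbp2 did not pass. RNA was sequenced from 20 C57BL/6 mice of 24 months, of which 10 had been given HK, which is prepared from Salvia haenkei and rich in polyphenols, at 0.5 mg per kg per day in the drinking water for 4 months from the age of 20 months, and 10 were untreated. No transgene or deletion is given for any of them, and each treatment group held 5 males and 5 females. The labels place 8 mice in experimental batch 1 and 12 in batch 2, with both sexes and both treatments in each. Setting HK-treated against untreated mice asks what the extract alters in the muscle of old animals, and the comparison of males with females is the other contrast that the design balances.

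IGF1 is a growth factor that is made in the liver under the control of growth hormone and also in muscle itself, where it acts on nearby fibres and precursor cells. It binds the receptor tyrosine kinase IGF1R, which signals through the IRS adaptor proteins to PI3K, AKT and mTOR and thereby favours protein synthesis, while active AKT keeps the FoxO transcription factors out of the nucleus. The IGF-binding proteins are secreted proteins that hold IGF1 and IGF2 in the circulation and in the matrix, and proteases such as HTRA1 and the pappalysins cut them and release the bound factor. IGFBP7 binds IGFs only weakly and is also known as a component of the vascular matrix and of the secretome of senescent cells.

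Libraries held 13900180 to 30469644 counts, with a median of 17016047. Genes of the muscle fibre marked every library: 8 genes such as Acta1 and Ckm summed to between 153292 and 219854 CPM (counts scaled to a common library size), and none of them was at 0 in any mouse. Xist had 2434 to 6876 counts in females and 0 to 15 in males, and Ddx3y had 761 to 2916 counts in males and 0 or 1 in females, which matches the labelled sex in all 20 mice. The labels number the samples within each group without naming animals, and each was taken as 1 mouse, so p-values measure the spread between these samples.

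In the GRCm38 assembly, Igf1 (ENSMUSG00000020053) occupies positions 87858265 to 87937042 of chromosome 10, and Igf1r (ENSMUSG00000005533) positions 67952827 to 68233668 of chromosome 7. Igfbp2 (ENSMUSG00000039323, 72824503 to 72852474) and Igfbp5 (ENSMUSG00000026185, 72857932 to 72874884) lie on opposite strands of chromosome 1. Igfbp3 (ENSMUSG00000020427, 7206086 to 7213923) and Igfbp4 (ENSMUSG00000017493, 99041244 to 99054392) are on chromosome 11, Igfbp6 (ENSMUSG00000023046, 102144362 to 102149511) on chromosome 15 and Igfbp7 (ENSMUSG00000036256, 77349240 to 77408041) on chromosome 5. All 8 are protein-coding genes, and the counts are sums over a gene, so the 8 annotated transcripts of Igf1 and the 6 of Igf1r are not told apart. Exons of Igfbp7 overlap those of Polr2b on the opposite strand by 85 bases, 7.03% of its exon length, and whether counting used strand is not stated. The promoters of Igfbp4, Igfbp6 and Igfbp7 are shown because these binding protein genes varied together between mice, as described further on. Each is the 250 bases before the RefSeq start of the gene on GRCm38.p6, read 5′ to 3′ on the strand of the gene, at chr11:99040994-99041243 (plus strand), chr15:102143936-102144185 (plus strand) and chr5:77408046-77408295 (minus strand). The Igfbp6 window ends at 102144185, short of the gene start given above, 102144362, so it may not hold the bases next to that start. The windows of Igfbp4 and Igfbp7 end close to the starts given above for these genes. Capitals mark the TATA box core TATAAA, the GC box GGGCGG, and the box named CCAAT, searched on both strands, and no 2 of the matches overlap.
Igfbp4: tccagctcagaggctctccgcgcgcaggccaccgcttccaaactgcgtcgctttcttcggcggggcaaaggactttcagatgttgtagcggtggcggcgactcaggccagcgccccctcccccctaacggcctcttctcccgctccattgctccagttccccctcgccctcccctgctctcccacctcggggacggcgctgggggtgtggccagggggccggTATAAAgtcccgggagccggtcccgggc
Igfbp6: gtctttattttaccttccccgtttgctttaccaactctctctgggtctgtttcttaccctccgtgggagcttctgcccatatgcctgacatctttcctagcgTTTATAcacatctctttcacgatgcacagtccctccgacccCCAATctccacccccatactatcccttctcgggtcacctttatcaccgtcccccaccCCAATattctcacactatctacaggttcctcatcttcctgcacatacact
Igfbp7: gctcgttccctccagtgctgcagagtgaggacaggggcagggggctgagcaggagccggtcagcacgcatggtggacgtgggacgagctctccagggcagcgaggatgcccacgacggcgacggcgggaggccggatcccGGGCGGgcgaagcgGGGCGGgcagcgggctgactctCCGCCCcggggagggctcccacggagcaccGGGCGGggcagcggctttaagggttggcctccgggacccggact
The Igfbp4 window holds 1 TATA box core near its end. The Igfbp6 window holds 1 TATA box core, on the opposite strand, and 2 CCAAT boxes, and the Igfbp7 window holds 4 GC boxes, 1 of them on the opposite strand. Of 32851 promoter windows of the same length, 12.4% hold the TATA box core, 32.7% the GC box and 33.8% the CCAAT box. No motif is common to the 3 windows. Their GC content is 69.2% for Igfbp4, 49.6% for Igfbp6 and 74.0% for Igfbp7, against a median of 52.4% over all windows.

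Levels of different genes were compared as CPM per kilobase of merged exons. Igfbp5, whose product binds matrix as well as IGFs and is the binding protein best known from muscle differentiation, had by far the highest level per length, with a median of 102.9 and a range of 26.4 to 140.5. It stood above each of the other members in all 20 mice and made up a median of 65.6% of the summed level per length of the 6 binding protein genes, with a range of 33.5% to 86.1%. Igfbp7 followed with a median level per length of 19.6, Igfbp6 with 14.9, Igfbp4 with 8.83 and Igfbp3, the main circulating carrier of IGF1, with 3.06. The ligand gene Igf1 had a median of 1.17 and the receptor gene Igf1r of 1.05.

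Neighbours in this order were separated in most mice, with an exception at the ligand and receptor. Igfbp7 lay above Igfbp6 in 17 of 20 mice, Igfbp6 above Igfbp4 and Igfbp4 above Igfbp3 in all 20, and Igfbp3 above Igf1 in 19. Over exon length Igf1 lay above Igf1r in 12 of 20 mice, and on this scale the order of these 2 genes went with sex. In males Igf1 lay above Igf1r in every mouse but untreated male 1. In females it lay below Igf1r in every mouse but untreated females 2 and 4 and HK female 4. The order depends on the length used: over the coding length Igfbp4 took the second place and Igf1 the fifth, above Igfbp3, while Igfbp5 stayed first. Per kilobase of coding length the median was 18.8 CPM for Igf1 and 4.28 CPM for Igf1r. The order of these 2 genes by sex is therefore given for exon length only.

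**Figure D1:**
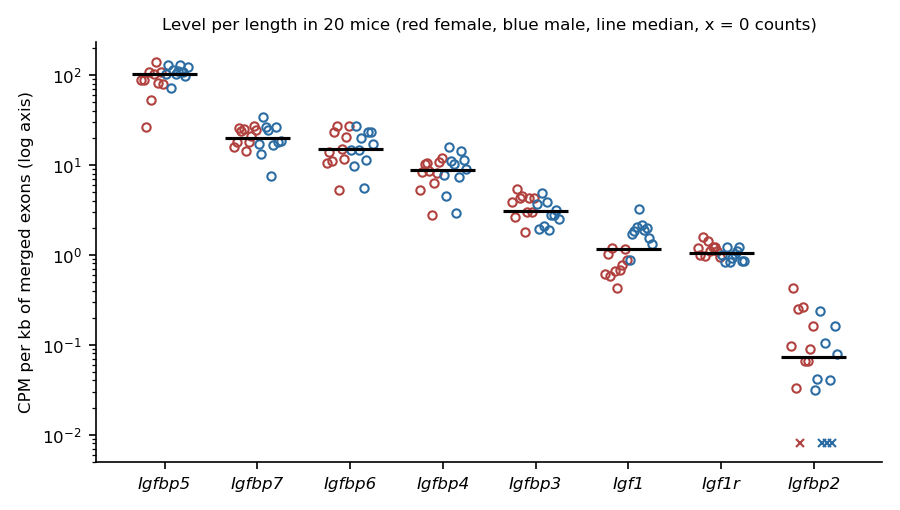
Level per length of the 8 genes in 20 mice, as CPM per kilobase of merged exons on a logarithmic axis, with 1 point per mouse (red female, blue male), the median as a line and crosses near the lower edge for mice with 0 counts. Igfbp5, with a median of 102.9, stands above all other genes in every mouse, and Igfbp2 lies lowest.

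Igfbp2 was close to the limit of detection. It had between 0 and 19 counts per mouse and a level of 0 to 0.790 CPM, with a median of 0.133 CPM. In 4 of 20 mice there was no count, which allows up to 0.153 to 0.203 CPM at 3 counts, a limit that covers counting error only. The highest level was in untreated female 2, at 0.790 CPM, followed by HK female 1 at 0.483 CPM. In a fit without the filter its log2 fold change was -1.16 for males against females (adjusted p = 0.0745, edgeR) and -0.41 for HK-treated against untreated mice (adjusted p = 0.836), and neither was called. The gap lay in batch 1, with 0.0528 ± 0.0362 CPM in 4 males and 0.393 ± 0.309 CPM in 4 females (SD). There untreated female 2 and HK female 1 had 19 and 15 counts, the other females 5 and 2, and the males 0 to 2. In batch 2 the means were 0.178 CPM in 6 males and 0.183 CPM in 6 females.

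The spread between mice was not the same for each gene. Over all 20 mice the coefficient of variation of the CPM was 18.8% for Igf1r, 27.4% for Igfbp5, 29.7% for Igfbp7 and 32.2% for Igfbp3. It was 38.9% for Igfbp4, 41.8% for Igfbp6 and 53.4% for Igf1. Over all mice the receptor gene was thus the steadiest member and the ligand gene the most variable of the 7 that were tested. This order did not hold within a sex. Within a sex the coefficient of variation of Igf1 was 32.7% in males and 32.2% in females. That of Igfbp6 was higher, 40.7% in males and 45.2% in females, as was that of Igfbp4, 42.9% and 33.9%. Igf1r had 15.6% in males and 17.8% in females, and Igfbp5 had 15.4% and 36.0%. These values pool the 2 batches, and the order of Igf1, Igfbp4 and Igfbp6 changed with batch. In batch 1 males and females, Igf1 had 33.6% and 36.8%, Igfbp4 41.1% and 40.7%, and Igfbp6 36.6% and 39.2%. In batch 2 males and females, Igf1 had 32.7% and 28.9%, Igfbp4 21.9% and 14.1%, and Igfbp6 21.6% and 35.6%.

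**Figure D2:**
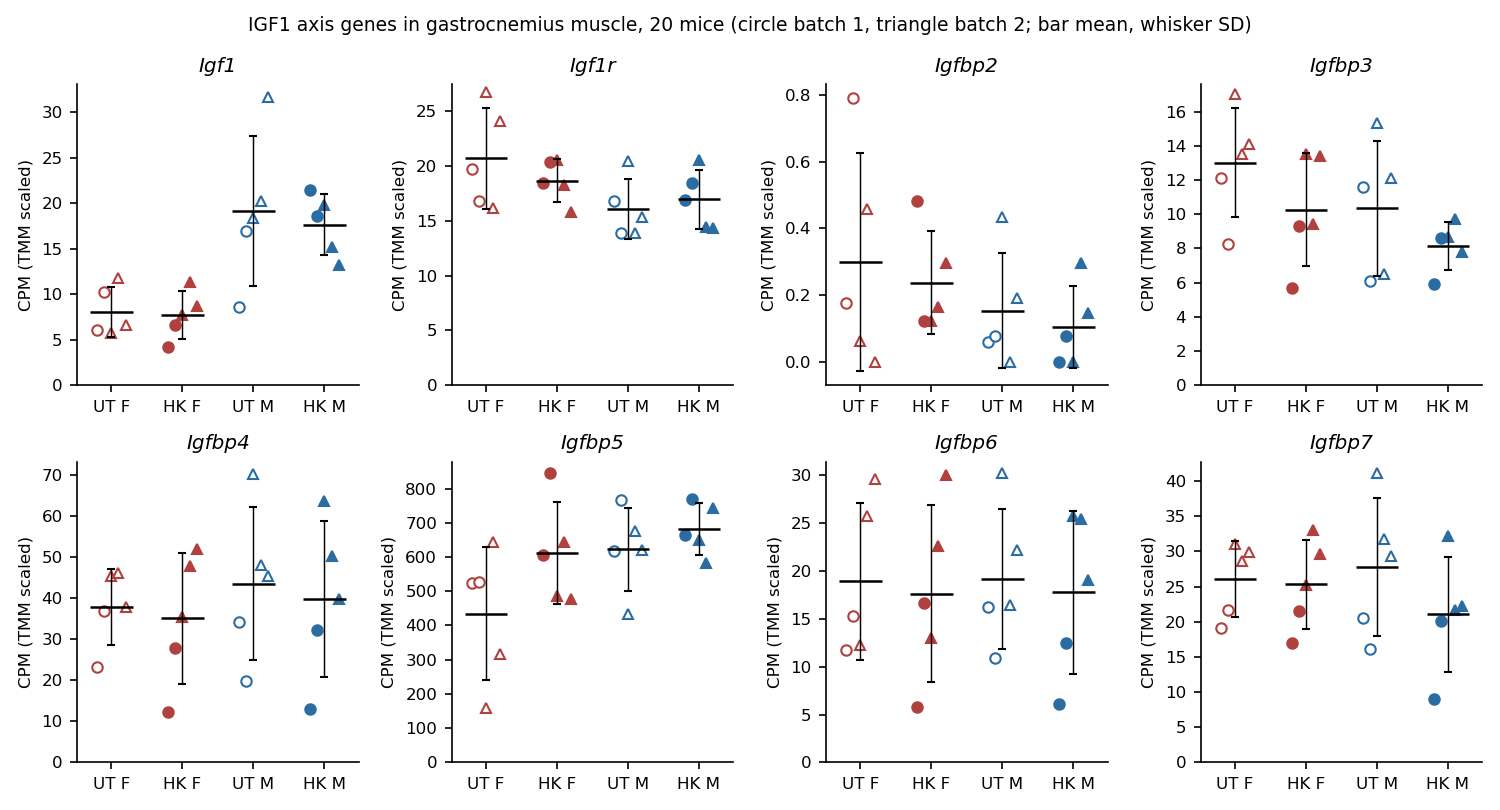
CPM (scaled with TMM) of each of the 8 genes in the 20 mice, by untreated (UT, open) and HK-treated (HK, filled) females (F, red) and males (M, blue), with circles for batch 1, triangles for batch 2, the mean as a bar and the SD as a whisker. For Igf1, 9 of 10 males lie above every female, and for Igfbp4 and Igfbp7, 11 of 12 mice of batch 2 lie above every mouse of batch 1.

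Igf1 was the member that differed between the sexes, with 2.34 times the level in males. In untreated males the 5 values were 8.64, 16.9, 18.3, 20.2 and 31.7 CPM, and in HK-treated males 21.5, 18.6, 19.9, 15.2 and 13.2 CPM. In untreated females they were 6.02, 10.2, 5.69, 11.8 and 6.56 CPM, and in HK-treated females 4.25, 6.65, 7.71, 11.3 and 8.69 CPM. Of the males, 9 of 10 lay above every female, and the exception was untreated male 1, at 8.64 CPM. The mean was 18.4 ± 6.02 CPM in males and 7.89 ± 2.54 CPM in females (SD, n = 10 each). With batch and treatment as covariates the log2 fold change of males against females was 1.23 (SE 0.19, 95% interval 0.83 to 1.63, adjusted p = 0.000150, edgeR quasi-likelihood test with Benjamini-Hochberg adjustment over all genes). Of all 13626 genes, 16.1% were called between the sexes and 1.33% had no overlap between males and females, so that a call of 1 among the 7 tested members is close to the background.

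The difference in Igf1 was present in both batches and both treatment groups. Its log2 fold change was 1.27 within batch 1 (adjusted p = 0.0359, edgeR) and 1.15 within batch 2 (adjusted p = 0.0104), where the 6 males and 6 females did not overlap. It was 1.24 within HK-treated mice (adjusted p = 0.0115) and 1.18 within untreated mice, where the adjusted p was 0.0512 and the call was lost with 10 mice. Leaving out any 1 mouse gave 1.12 to 1.33, with an adjusted p of at most 0.000557. The interaction of sex with treatment was 0.05 (SE 0.40) and that of sex with batch -0.12 (SE 0.40) on the log2 scale, and neither was called. In bulk muscle fewer cells of a type and less RNA per cell cannot be told apart, and cell type markers also differed between the sexes. Of 10 macrophage marker genes, 9 were higher in males (1 called, Cd68), and their summed CPM ran from 15.7 to 187.9 in males and from 23.3 to 114.4 in females. All 4 tested tenocyte markers were higher in males (1 called, Thbs4) and all 6 adipocyte markers were lower (5 called). Their part in the difference in Igf1 was not tested.

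The receptor gene and the binding protein genes did not pass the test between the sexes. Igf1r had a mean of 16.5 ± 2.58 CPM in males and 19.7 ± 3.499 CPM in females (SD, n = 10 each), with a log2 fold change of -0.25 (SE 0.10, 95% interval -0.46 to -0.03, adjusted p = 0.110), and 5 of 10 males lay below every female. For Igfbp5 the log2 fold change was 0.35 (SE 0.17, adjusted p = 0.166) and for Igfbp3 -0.30 (SE 0.15, adjusted p = 0.179). Those of Igfbp4, Igfbp6 and Igfbp7 were 0.16, -0.0025 and -0.11, with adjusted p-values of 0.583 to 0.996. Within the batches the log2 fold change was -0.19 and -0.30 for Igf1r, 0.19 and 0.44 for Igfbp5, and -0.11 and -0.45 for Igfbp3. All 10 endothelial markers had a negative log2 fold change in males (0 called), with sums of 102.3 to 302.8 CPM in males and 172.6 to 306.1 CPM in females.

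**Figure D3:**
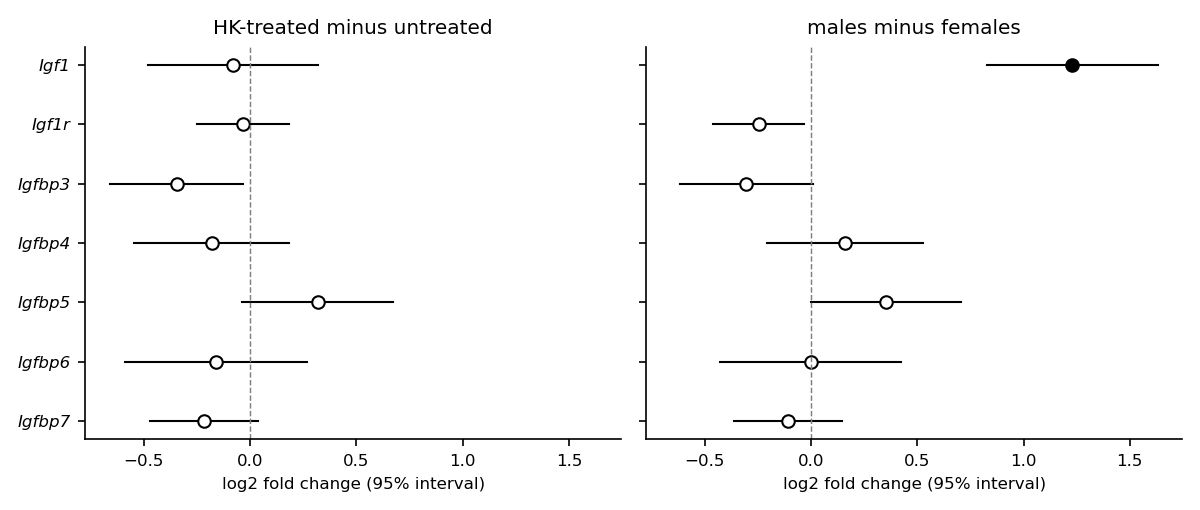
Log2 fold change with its 95% interval (edgeR) of the 7 tested genes, HK-treated minus untreated mice in the left panel and males minus females in the right, filled where the adjusted p was under 0.05. Igf1 between the sexes, at 1.23, is the filled point.

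With HK, no member passed the test. Of the 7 tested, 0 were called, as were 0 of all 13626 genes (0%) by edgeR, with 835 genes (6.13%) and 1 member at an unadjusted p under 0.05; DESeq2's Wald test called 7 genes and limma voom 0, none of them a member. The log2 fold change was negative for 6 of the 7 members, with a median of -0.16 against 0.0024 over all genes. For Igf1 it was -0.08 (SE 0.19, 95% interval -0.48 to 0.32, adjusted p = 0.954). This leaves a change of up to 1.25-fold upward, and a larger one downward, inside the interval. For Igf1r it was -0.03 (SE 0.10, 95% interval -0.25 to 0.18, adjusted p = 0.967).

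Of the 5 binding protein genes that passed the filter, Igfbp3 and Igfbp5 had the largest log2 fold changes with HK, in opposite directions and not called. Igfbp3 ran from 5.66 to 13.5 CPM in HK-treated mice (median 8.99) and from 6.10 to 17.02 CPM in untreated mice (median 12.1), and 2 of the 10 values with HK exceeded the median without HK. Its log2 fold change was -0.35 (SE 0.15, 95% interval -0.66 to -0.03, unadjusted p = 0.0322, adjusted p = 0.795, edgeR), the only member at an unadjusted p under 0.05, and it was -0.39 in batch 1 and -0.34 in batch 2. Igfbp5 ran from 476.8 to 843.9 CPM with HK (median 646.2) and from 158.5 to 766.7 CPM in untreated mice (median 571.0), and 8 of the 10 values with HK exceeded the median without HK. The groups of both genes overlap.

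The log2 fold change of Igfbp5 was 0.32 (SE 0.17, 95% interval -0.04 to 0.67, adjusted p = 0.805). The lowest values were those of untreated female 3 (158.5 CPM) and untreated female 5 (317.0 CPM), while the other 3 untreated females had 525.3, 525.9 and 645.1 CPM. Without untreated female 3 the log2 fold change of Igfbp5 was 0.21, and it was 0.49 in females alone and 0.13 in males alone, with no called interaction. Igfbp7 had -0.22 (SE 0.12, adjusted p = 0.805), Igfbp4 -0.18 (SE 0.18, adjusted p = 0.872) and Igfbp6 -0.16 (SE 0.20, adjusted p = 0.913). Within batch 2 the difference was near 0 for Igfbp4 (-0.02) and Igfbp6 (-0.0086), against -0.43 and -0.42 in batch 1. Leaving out 1 mouse gave -0.25 (without HK male 2) to -0.094 (without untreated female 2) for Igfbp4 and -0.26 (without HK female 2) to -0.072 (without HK female 1) for Igfbp6.

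Marker lists of other cell types ran in different directions with HK. The log2 fold change was negative for all 10 endothelial, all 10 fibroblast, all 8 smooth muscle and pericyte, and all 10 macrophage markers, with medians of -0.23, -0.25, -0.23 and -0.29 and 0 called in each list. It was also negative for both satellite cell markers tested (median -0.18). It was positive for all 6 Schwann cell markers (median 0.35) and 3 of 4 tenocyte markers (median 0.03), and 3 of 6 adipocyte markers were positive (median 0.0082), with 0 called. The summed fibroblast markers were 201.5 to 989.4 CPM with HK and 289.6 to 1521 CPM without, and the summed endothelial markers 102.3 to 306.1 CPM with HK and 166.7 to 302.8 CPM without. No endothelial, fibroblast, smooth muscle and pericyte or macrophage marker was at 0 in any mouse. Their part in the values of the binding protein genes was not tested.

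No member had a called interaction of treatment with sex, of treatment with batch or of sex with batch. Of all genes, 0 were called by edgeR in each, with 476 (3.49%), 409 (3%) and 1762 genes (12.9%) at an unadjusted p under 0.05, and limma voom called 0. None of the 7 members was at an unadjusted p under 0.05 in any of the 3. The interaction of treatment with sex was widest for Igfbp5, -0.36 (SE 0.34), and Igfbp7, -0.33 (SE 0.24), on the log2 scale.

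Between the batches, 4 of the binding protein genes differed. Batch 2 was higher than batch 1 for Igfbp4 (log2 fold change 0.97, adjusted p = 0.000543), Igfbp6 (0.94, adjusted p = 0.00206), Igfbp7 (0.71, adjusted p = 0.000297) and Igfbp3 (0.46, adjusted p = 0.0239), by edgeR. These are 4 of the 7 tested members, where 18.2% of all genes were called higher in batch 2. Igfbp4 ran from 12.4 to 36.9 CPM in batch 1 (n = 8) and from 35.6 to 70.4 CPM in batch 2 (n = 12), and 11 of the 12 lay above every mouse of batch 1. Igf1, Igf1r and Igfbp5 were not called, with log2 fold changes of 0.31, 0.05 and -0.33. In batch 2 all 10 fibroblast markers and all 10 macrophage markers were called higher, and the median of their sum was 363.4 CPM in batch 1 and 610.7 CPM in batch 2 for fibroblast and 28.9 and 95.3 CPM for macrophage markers. Their part in the values of Igfbp3, Igfbp4, Igfbp6 and Igfbp7 was not tested.

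Members were then compared across the 20 mice, in log2 CPM from which batch, sex and treatment had been removed. Of 21 pairs of the 7 tested genes, 3 were correlated after adjustment over the 21 pairs (two-sided permutation test, 100000 resamples). Igfbp4 and Igfbp7 had Pearson's r = 0.77 (adjusted permutation p = 0.00105) and Spearman's rho = 0.72 (adjusted permutation p = 0.00493), with r = 0.81 in batch 1 and 0.80 in batch 2, and 0.73 without the 2 mice farthest from the median of Igfbp4. Igfbp4 and Igfbp6 had r = 0.76 (adjusted permutation p = 0.00147) and rho = 0.73 (adjusted permutation p = 0.00493), with r = 0.93 in batch 1 and 0.49 in batch 2, and 0.71 without the 2 farthest mice. The remaining pair of these genes, Igfbp6 and Igfbp7, had r = 0.55 (adjusted permutation p = 0.0598).

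Igf1r and Igfbp5 ran against each other, with r = -0.67 (adjusted permutation p = 0.00322) and rho = -0.61 (adjusted permutation p = 0.0349). Without the 2 mice farthest from the median of Igf1r, r was -0.58. The relation did not hold in batch 1, where r was -0.12, against -0.73 in batch 2. Untreated female 3 had the highest Igf1r, 26.8 CPM, together with the lowest Igfbp5, 158.5 CPM. Igf1 was not correlated with any other member after adjustment, and its highest r was 0.45, with Igfbp5 (adjusted permutation p = 0.138). That pair had r = 0.05 in batch 1 and 0.73 in batch 2, where it was called when batch 2 was taken alone. Igf1r and Igfbp3, at r = 0.50 over all mice (adjusted permutation p = 0.109), had 0.96 in batch 1, where the pair was called alone, and 0.46 in batch 2.

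**Figure D4:**
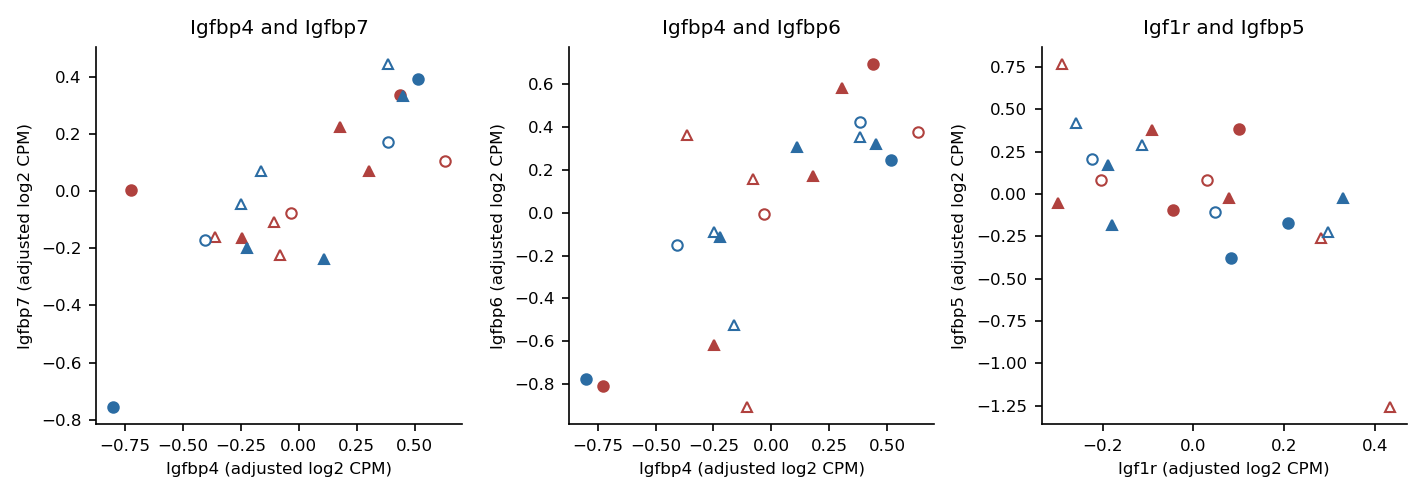
Log2 CPM of 3 pairs of genes in the 20 mice after removal of batch, sex and treatment (centred on 0), with circles for batch 1, triangles for batch 2, red for females, blue for males and filled points for HK. Igfbp4 is high where Igfbp7 (r = 0.77) and Igfbp6 (r = 0.76) are high, and Igfbp5 is low where Igf1r is high (r = -0.67), with untreated female 3 at the lower right.

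The genes whose pattern across mice was most like each member were named by the highest Spearman rho over the 20 mice among the 13625 other genes tested, as a description without a p, since all points share library and depth. For Igfbp4 they were Serping1, the inhibitor of the complement protease C1, with rho = 0.96, and Rnase4 with 0.95. For Igfbp6 they were Clec3b, which is also among the fibroblast markers used here, with 0.90, and the matricellular gene Ccn3 with 0.87. For Igfbp7 they were the matrix gene Thbs3 with 0.94 and the scaffold gene Iqgap1 with 0.91. Against the summed fibroblast markers, rho was 0.81 for Igfbp4, 0.73 for Igfbp6 and 0.79 for Igfbp7. It was 0.28 for Igf1, 0.29 for Igfbp5, 0.18 for Igfbp3 and 0.02 for Igf1r. The relation was not particular to fibroblast markers. For Igfbp4, Igfbp6 and Igfbp7, rho was 0.69, 0.51 and 0.72 with macrophage markers and 0.72, 0.42 and 0.59 with adipocyte markers. With tenocyte markers it was 0.63, 0.51 and 0.61 for these genes and 0.53 for Igf1, the highest of Igf1 with any list.

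For Igf1 the most alike genes were Hpgd, the prostaglandin-degrading dehydrogenase, with rho = 0.91, and the co-chaperone gene Dnajb14 with 0.80. For Igfbp5 they were Inppl1, which encodes the inositol phosphatase SHIP2, with 0.87, and the creatine synthesis gene Gamt with 0.84. For Igf1r they were Gm10863 with 0.86 and the kinase gene Clk2 with 0.81, and for Igfbp3 Gucy1a1, a subunit of the nitric oxide receptor, with 0.80 and the decapping gene Dcp1b with 0.78. With the summed endothelial markers rho was 0.72 for Igfbp7, 0.67 for Igfbp4, 0.62 for Igfbp6 and for Igfbp3, and 0.49 for Igf1r. With the smooth muscle and pericyte markers it was 0.67 for Igfbp7, 0.62 for Igfbp4 and for Igfbp3, 0.56 for Igfbp6 and 0.47 for Igf1r. These values describe 20 mice and say nothing of shared control.

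Of 40 other genes of the pathway, 37 passed the filter, and Igfbp1, Igfbpl1 and Pappa2 did not. Between the sexes 2 were called higher in males and 9 lower, against 8.79% and 7.33% of all genes, with a median log2 fold change of -0.09 over the 37. The growth hormone arm was mixed: Jak2, the kinase of the growth hormone receptor, was higher in males (log2 fold change 0.52, adjusted p = 0.000546), and the STAT genes that it acts on were lower, Stat5a with a log2 fold change of -0.28 (adjusted p = 0.0265) and Stat5b with -0.30 (adjusted p = 0.0444). Stat5a and Stat5b are close paralogs, and how reads shared by both were assigned is not stated. The call for Stat5b was lost when any of 11 mice was left out (untreated males 3, 4 and 5, untreated females 1, 3 and 5, HK-treated males 2 and 3, HK-treated females 2, 3 and 4), with an adjusted p of up to 0.0862, and that for Stat5a without untreated male 2 (adjusted p = 0.0525).

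Genes that act on the binding proteins stood on both sides. Htra1, a secreted protease that cuts several IGFBPs, was at 44.7 ± 10.1 CPM in males and 26.5 ± 6.58 CPM in females (SD, n = 10 each), a log2 fold change of 0.77 (adjusted p = 4.39e-05, edgeR). Stc2, whose product stanniocalcin-2 inhibits the pappalysin proteases, ran from 0.957 to 3.62 CPM in males and from 4.03 to 27.4 CPM in females. The sexes did not overlap for Stc2, and its log2 fold change was -1.91 (SE 0.36, adjusted p = 0.000920). HK female 5, at 27.4 CPM, stood apart from the other females, and without it the log2 fold change of Stc2 was -1.52.

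Downstream of the receptor, 5 genes were lower in males. They were Grb10, an adaptor that restrains insulin and IGF1 receptors (log2 fold change -0.84, adjusted p = 9.86e-05), the receptor substrate Irs1 (-0.42, adjusted p = 0.00387), Foxo3, a FoxO factor that drives atrophy genes (-0.52, adjusted p = 0.000724), and the PI3K subunit genes Pik3r1 (-0.59, adjusted p = 0.0180) and Pik3ca (-0.25, adjusted p = 0.00865), by edgeR. The scavenger receptor Igf2r, which clears IGF2, was also lower (-0.14, adjusted p = 0.0211), a call that was lost without the filter on low counts (adjusted p = 0.218). Within batch 1 and batch 2 the log2 fold change was -1.22 and -0.61 for Grb10, -0.54 and -0.36 for Irs1, and -0.38 and -0.63 for Foxo3. Pik3r1, Igf2r and Stat5a were called in neither batch alone, Irs1 and Pik3ca not in batch 2, and Stat5b not in batch 1, where its log2 fold change was -0.012. Htra1, Jak2, Stc2, Grb10 and Foxo3 were called in both batches. In untreated mice alone Grb10 was not called (adjusted p = 0.0801), nor was Foxo3 in HK-treated mice alone (adjusted p = 0.0775), and Irs1, Pik3ca, Pik3r1, Igf2r, Stat5a and Stat5b were called in neither. Without the batch covariate the calls for Stat5a and Stat5b were lost (adjusted p = 0.0514 and 0.169).

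With HK, 0 of the 37 pathway genes were called by edgeR, and 26 had a positive log2 fold change, with a median of 0.06 against 0.0024 over all genes. Without the filter on low counts edgeR called Irs2 (adjusted p = 7.44e-45), Htra1 (adjusted p = 0.00296), Stc2 (adjusted p = 0.00879) and Irs1 (adjusted p = 0.00995) of the 12 that are named, with positive log2 fold changes of 1.06, 0.31, 0.52 and 0.26. With the filter the log2 fold changes were nearly the same, 1.05, 0.30, 0.51 and 0.25. The SE without the filter was smaller, 0.07 against 0.34 for Irs2. The calls without the filter thus rest on a smaller SE and not on larger differences. With the filter, DESeq2 gave an adjusted p of 0.557 for Irs2, its lowest among the 12 pathway genes that are named. Of the 37 pathway genes, 4 had an unadjusted p under 0.05 by edgeR, Irs2, Htra1, Irs1 and Rictor, each with a positive log2 fold change. Of all genes, 6.13% had such a p, and 2.78% had it with a positive log2 fold change. Irs2, an insulin and IGF1 receptor substrate, ran from 25.8 to 325.7 CPM with HK (median 67.0) and from 15.2 to 112.9 CPM without (median 36.1). Its log2 fold change was 1.05 (SE 0.34, unadjusted p = 0.00539, adjusted p = 0.795, edgeR), and it was 0.31 in batch 1 and 1.57 in batch 2. Htra1 had 0.30 (SE 0.11) and Irs1 0.25 (SE 0.09), each with an adjusted p of 0.795. Stc2 had 0.51 (SE 0.35, adjusted p = 0.832, edgeR), and leaving out 1 mouse gave 0.020 to 0.68. HK female 5 had 27.4 CPM of Stc2, against 0.957 to 8.44 CPM in the other HK-treated mice.

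**Figure D5:**
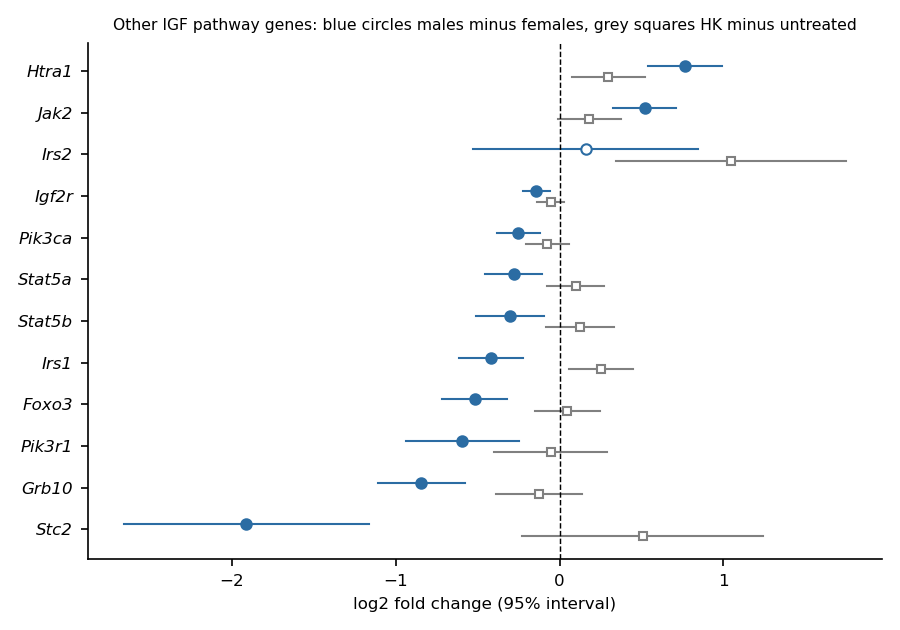
Log2 fold change with its 95% interval (edgeR) of 12 other genes of the IGF pathway, males minus females as blue circles and HK-treated minus untreated mice as grey squares, filled where the adjusted p was under 0.05. Between the sexes the filled circles of Htra1 and Jak2 lie to the right of 0 and those of 9 genes to the left. The circle of Irs2, at 0.16, is open, and no grey square is filled.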

How the data were processed

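Gastrocnemius RNA of 20 mice was sequenced after removal of ribosomal RNA. The authors aligned reads with STAR (2.6.1c per the submitters' processing notes) to GRCm38.p6, quantified genes with GENCODE M25 and deposited raw counts per gene. Which program counted the reads, whether it used strand and what it did with multimapping reads is not given in the sources used here. Groups came from the labels of treatment, sex and experimental batch. Names and exon lengths were read from GENCODE M21 (GRCm38), which matched 55141 of 55401 identifiers. The 260 others hold 0.00127% of the counts.

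Counts were fitted in R 4.3.3 with edgeR 4.0.16 (TMM, filterByExpr by treatment and sex, quasi-likelihood test, batch, sex and treatment as terms, Benjamini-Hochberg over 13626 genes, threshold 0.05). Correlations used log2 CPM (prior count 2) after limma 3.58.1 removed the 3 terms. They covered 21 pairs, since Igfbp2 did not pass the filter. The fit was tested on simulated data. Alternatives were DESeq2 1.42.0 and its size factors, limma voom, no filter, fewer covariates, a replicate block, each batch, sex or treatment alone and each mouse left out. Python 3.11.15 drew the figures (matplotlib 3.10.9, pandas 2.3.3, numpy 2.4.6).

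The members, the lists of pathway and marker genes and the tests were chosen with earlier results of these data known. Named were all 8 members, up to 12 pathway genes (those called and the 4 with the lowest p in either comparison), the 2 genes most alike to each member, and Xist and Ddx3y. Rictor, Cd68 and Thbs4 fall outside this rule and were named after their values were seen, as were Acta1 and Ckm as examples of a list. Between mice of 1 group and batch the chi-square of the counts was 8.06 to 49.6 per degree of freedom, above sampling noise, so no library was counted as a copy of another. Total counts of 13900180 to 30469644 set the precision of low genes such as Igfbp2. The young mice were not analysed here.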

Additional observations from a re-analysis of the deposited data

Results flagged for a closer look

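In groups of 5 mice, 8 of the 80 groups and genes examined held a mouse whose gap to its nearest neighbour was large for the range of the group; chance gives about 1 in 20. None of the 8 IGF1 axis genes was among them. Foxo3 was at 59.5 CPM in HK female 5, against 38.8 to 43.7 CPM in the other HK-treated females, and Stc2 was at 27.4 CPM in the same mouse, against 4.47 to 8.44 CPM. Stat5a was at 23.9 CPM in HK female 2, against 14.5 to 16.1 CPM in the others of its group. In untreated female 3, Igf2r was at 151.1 CPM, against 122.3 to 128.3 CPM, and Pik3r1 at 76.7 CPM, against 30.7 to 42.1 CPM. Grb10 was at 52.8 CPM in untreated female 5, against 62.1 to 65.7 CPM. Htra1 was at 31.6 CPM in untreated male 4, against 39.9 to 42.4 CPM, and Pik3r1 at 48.0 CPM in untreated male 5, against 19.8 to 24.02 CPM.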

How the results depend on the processing

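Without a filter on low counts, 502 genes and 2 members were called with HK (Igfbp3 at -0.34, adjusted p = 0.0345, and Igfbp5 at 0.33, adjusted p = 0.000119, edgeR), and DESeq2's Wald test called 7 genes and no member. Without the filter the SE fell from 0.15 to 0.097 for Igfbp3 and from 0.17 to 0.066 for Igfbp5, while their log2 fold changes hardly moved. These 2 calls thus rest on the smaller SE. With the filter, leaving out 1 mouse gave 0 to 1 genes called with HK, the 1 without HK female 1. Between the sexes, 4 members were called without the filter (Igf1, Igf1r, Igfbp3 and Igfbp5) and 0 in untreated mice alone. All-gene counts between the sexes were 1312 in batch 1, 936 in batch 2, 452 in untreated mice and 630 in HK-treated mice, each with fewer mice. Without the filter the interactions gave 314 (treatment with sex), 225 (treatment with batch) and 825 genes (sex with batch), and leaving out 1 mouse gave 0 to 2 for the last, with 2 without HK male 1, HK male 3 or HK female 5 and 1 without HK male 5. Unadjusted log2 CPM gave 10 correlated pairs. Over the coding length Igfbp5 stood 16.2 times above the next gene, against 5.25 times over exons.

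Replicate numbers did not pair the mice: same-numbered mice had correlations of -0.33 to 0.23 between treatments and -0.48 to 0.04 between sexes. With the replicate number as a block, 0 genes were called with HK and 1946 between the sexes, with 2 members called, Igf1 and Igf1r (-0.25, adjusted p = 0.0160, edgeR). Under the block Igfbp6 between the sexes was 0.028, Irs2 -0.0084, and the call for Stat5b was lost.

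Some signs changed, all for values that had not been called, and the cause was not tested. With HK, batch 1 alone gave 0.068 for Igf1, 0.14 for Igf1r, -0.15 for Stc2 and 0.14 for Pik3r1, and batch 2 alone -0.019 for Stat5a. Males alone gave 0.071 for Igf1r, -0.34 for Stc2 and 0.031 for Pik3r1, and females alone 0.071 for Grb10 and -0.046 for Foxo3. Between the sexes, Igfbp6 was 0.0026 with DESeq2 size factors, 0.075 with voom, 0.018 without the batch or any covariate, 0.040 in batch 2 and 0.020 in untreated mice, where Igfbp7 was 0.059 and Irs2 -0.54. Irs2 was -0.032 with voom and -0.045 in batch 2. Leaving out 1 mouse gave, with HK, -0.17 to 0.027 for Igf1, -0.076 to 0.021 for Igf1r, -0.0083 to 0.089 for Foxo3 and -0.12 to 0.055 for Pik3r1, and between the sexes -0.083 to 0.086 for Igfbp6 and -0.081 to 0.32 for Irs2.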
